A study of Arabis alpina with 23 samples.

Results

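Of the 34220 genes in the deposited table of the perennial crucifer Arabis alpina, 2 transcription factor genes of the AP2-like kind are described here, Aa_G234670 and Aa_G192860. They were picked by identifier with their levels already known, so their levels and differences are given as a description, with no test. Aa_G192860 is described in the deposited table as an AP2-like factor BBM, after BABY BOOM. Aa_G234670 was put forward as a TOE1 gene, but its deposited description reads RAP2-7, a name also used for TOE1 in Arabidopsis, and its alias in the deposited annotation is the locus At5g60120, which is TOE2 in Arabidopsis. The alias At2g28550, the Arabidopsis TOE1 locus, stands at another RAP2-7-described gene, Aa_G158280. Aa_G234670 is therefore called the RAP2-7-described gene below, and Aa_G192860 the BBM-described gene.

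AP2-like factors carry a pair of AP2 DNA-binding domains and fall into 2 branches. In Arabidopsis the APETALA2 branch, with AP2, TOE1, TOE2 and SMZ, holds repressors of flowering that recruit TOPLESS co-repressors and are silenced by the microRNA miR172, whose level goes up with plant age as SPL factors become active. In the AINTEGUMENTA branch, BBM, AIL5, AIL6 and their kin promote cell division and meristem and embryo identity, and BBM is best known from embryos and roots of Arabidopsis and Brassica. MicroRNAs were not analysed here.

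Axillary buds (AB), dissected when each had a single leaf primordium, were compared with shoot apical meristems (SAM) carrying 1 leaf primordium. All plants were of the Pajares accession, with no mutant or transgene. After 4 days of stratification they were grown in long days at 24 °C by day and 18 °C by night. The groups were AB and SAM at 4 weeks of growth (stage 1), 8 weeks of growth (stage 2), after 4 weeks at 4 °C (stage 3) and after 7 weeks at 4 °C (stage 4). No plant age is listed for stages 3 and 4, and cold and added age cannot be told apart there. A library was made from 120 to 150 pooled pieces, so a value is a mean over many plants' pieces and over all their cells. There were 3 libraries a group, except AB stage 1 with 2, in all 23 libraries, with 13973874 to 15655452 counts in AB libraries and 12247645 to 26218502 in SAM libraries, and 21824 to 23524 genes detected. The lowest and the highest totals were both SAM libraries, at stage 3 and stage 4. The 6 meristem markers (STM, WUS, CLV3, ATH1 and 2 genes described as CLV1) had counts in all 8 groups. Their summed level in counts per 1000000 counts (CPM) was 314 to 320 in AB and 408 to 494 in SAM at stages 1 and 2, 321 to 365 in AB and 328 to 385 in SAM at stage 3, and 300.4 to 311 in AB and 368 to 401 in SAM at stage 4. In this sum the tissues were thus apart at stages 1, 2 and 4 and overlapped at stage 3, but single markers went either way. At stage 1, ATH1 had 747 to 798 counts in AB libraries and 2810 to 3526 in SAM libraries. WUS had 79 to 80 in AB and 17 to 30 in SAM. By edgeR at an adjusted p under 0.05, 2 of the 6 were higher and 1 lower in AB at stage 1. Of all genes tested, 32.8% were called there. The part of these markers in the levels of the 2 genes was not tested. In such bulk samples, fewer cells of a type and less RNA per cell cannot be told apart.

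Both genes lie on chromosome 8 of the version 5 assembly. The RAP2-7-described gene spans 41352175 to 41354984 on the plus strand, with 8 coding exons and a coding length of 1707 bp. The BBM-described gene spans 13957170 to 13960372 on the minus strand, with 9 coding exons and a coding length of 1743 bp, and its exon 4 is only 9 bp long. Each model was placed at 1 locus and overlapped 0 other models, and the nearest model lies 857 bp away from the first (Aa_G234680) and 26775 bp from the second (Aa_G192850). Genomic, promoter and protein sequences were not used here.

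**Figure D1:**
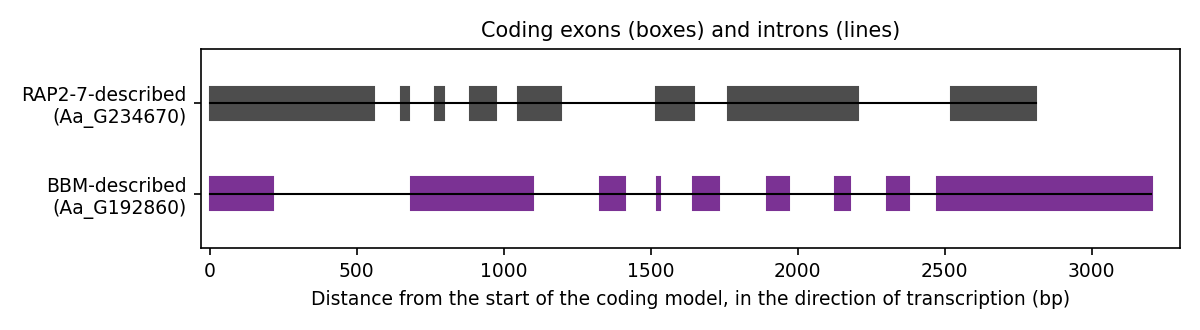
Coding exons (boxes) and introns (lines) of the 2 genes along the direction of transcription, in bp from the start of the coding model. The RAP2-7-described gene (top) has 8 coding exons over 2810 bp and the BBM-described gene (bottom) 9 over 3203 bp, with long first and seventh exons in the first and a long last exon in the second.

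The RAP2-7-described gene was abundant in both tissues, but the side on which it was higher changed between growth and cold. At stage 1 it had 122 and 126 CPM in AB libraries, against 228, 239 and 199.8 CPM in SAM libraries. At stage 2 the values were 142, 134 and 145 CPM in AB and 239, 209.8 and 181 CPM in SAM. In growing plants all AB libraries were below all SAM libraries. In log2 units, AB minus SAM was −0.84 ± 0.18 at stage 1 and −0.58 ± 0.16 at stage 2, where each ± is the standard error (SE) from a fit to all libraries. Over all 21414 genes tested, the libraries of AB and SAM did not overlap for 56.8% at stage 1 and 46.0% at stage 2, so a gap between the groups was common.

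After 4 weeks of cold the order was the other way round. At stage 3 the RAP2-7-described gene stood at 112, 113 and 125 CPM in AB, against 68.2, 75.8 and 46.2 CPM in SAM. At stage 4 it stood at 71.7, 47.9 and 47.6 CPM in AB, against 33.1, 39.7 and 33.1 CPM in SAM. At both cold stages all AB libraries were above all SAM libraries, with log2 differences of 0.88 ± 0.16 at stage 3 and 0.66 ± 0.16 at stage 4. Libraries did not overlap for 50.9% of all genes tested at stage 3 and 26.8% at stage 4. Without AB stage 4 replicate 1, the highest of its group, the stage 4 difference was 0.44.

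**Figure D2:**
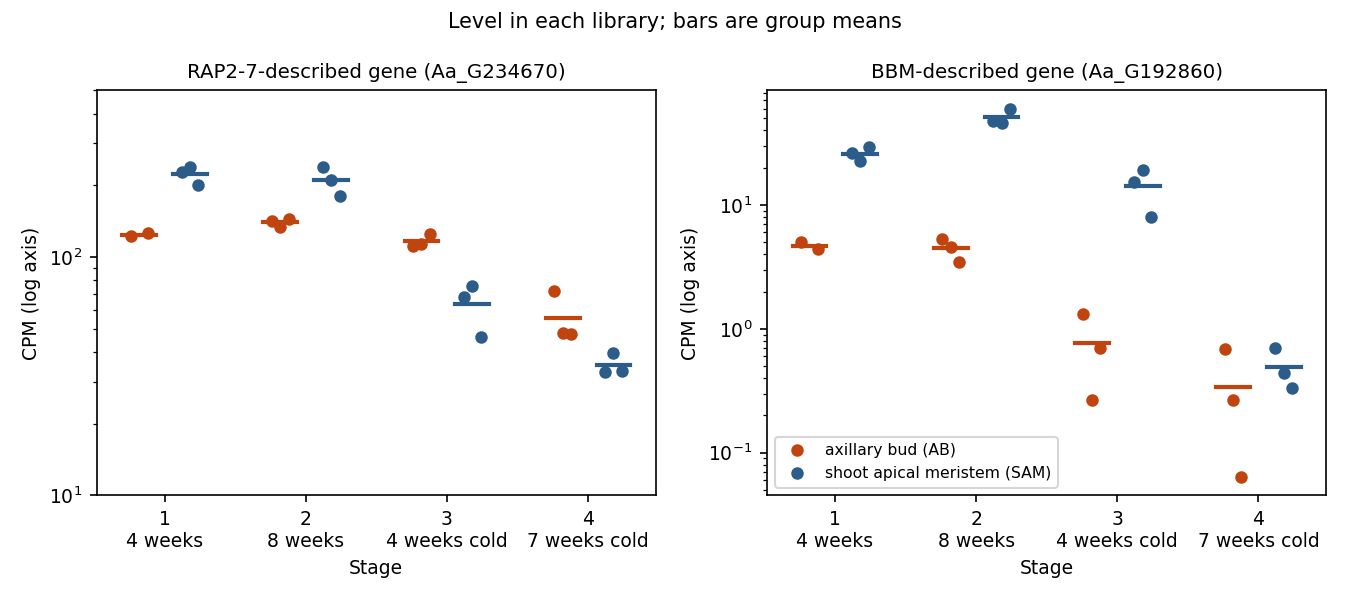
CPM in each library (log axis) of the RAP2-7-described gene (left) and the BBM-described gene (right) at the 4 stages, with AB in red and SAM in blue and a bar at each group's mean. The RAP2-7-described gene is lower in AB than in SAM at stages 1 and 2 and higher at stages 3 and 4, and the BBM-described gene is lower in AB at stages 1 to 3 and overlaps at stage 4.

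Followed through the stages within a tissue, the RAP2-7-described gene stayed high in buds for longer than in the apex. In AB it averaged 124 ± 2.39, 140.4 ± 5.45, 117 ± 7.46 and 55.7 ± 13.8 CPM at stages 1 to 4 (SD, n = 2 and then 3). In SAM it averaged 222 ± 20.2, 209.8 ± 28.9, 63.4 ± 15.4 and 35.3 ± 3.83 CPM (SD, n = 3 each). Most of the decline in buds thus lay between stages 3 and 4, and most of that in the apex between stages 2 and 3.

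In AB the change was 0.18 ± 0.18 for stage 2 against stage 1, −0.27 ± 0.16 for stage 3 against stage 2 and −1.06 ± 0.16 for stage 4 against stage 3, on the log2 scale. The libraries did not overlap in any of these steps, as for 27.2%, 35.6% and 56.6% of all genes tested. In SAM the change was −0.08 ± 0.16, −1.72 ± 0.16 and −0.85 ± 0.16 for the same steps. The SAM libraries of stages 1 and 2 overlapped, and those of the later steps did not. The shares of all genes whose SAM libraries did not overlap were 27.7%, 37.8% and 30.0%. From stage 2 to stage 4 together, the level was 2.52-fold lower in AB and 5.95-fold lower in SAM, with no overlap of the stages in either tissue, as for 59.8% of all genes in AB and 46.7% in SAM.

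Ordered by mean level, the RAP2-7-described gene went from SAM stage 1 at the top through SAM stage 2, AB stage 2, AB stage 1, AB stage 3, SAM stage 3 and AB stage 4 to SAM stage 4. Of the 7 pairs of neighbours in this order 3 overlapped, which were SAM stages 1 and 2, AB stages 1 and 3, and SAM stage 3 with AB stage 4. After 7 weeks of cold the buds thus held the gene within the range of the apex after 4 weeks.

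The BBM-described gene was far lower in the bud than in the apex from stage 1 to stage 3, and was close to the detection limit in both at the end of cold. Its counts at stage 1 were 71 and 62 in AB libraries, against 474, 405 and 538 in SAM libraries, which is 5.0 and 4.38 CPM against 26.2, 22.7 and 29.2 CPM. At stage 2 it stood at 5.35, 4.61 and 3.49 CPM in AB and at 47.3, 46.0 and 59.7 CPM in SAM. At stage 3 it stood at 1.32, 0.267 and 0.706 CPM in AB and at 15.3, 19.3 and 7.94 CPM in SAM. All AB libraries were below all SAM libraries at these 3 stages. Over all genes tested, the tissues did not overlap for 56.8%, 46.0% and 50.9% at stages 1 to 3. AB minus SAM was −2.47 ± 0.37, −3.51 ± 0.32 and −4.20 ± 0.41 in log2 units for stages 1 to 3, that is 5.54-fold, 11.4-fold and 18.4-fold lower in AB. Without AB stage 3 replicate 1, the highest of its group, the stage 3 value was −4.86.

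At stage 4 the BBM-described gene had 11, 4 and 1 counts in AB libraries, against 18, 8 and 6 counts in SAM libraries. The groups overlapped and the difference of −0.56 ± 0.72 was within its error, so a difference between bud and apex was not detectable at this depth. Without AB stage 4 replicate 1, which held most of the AB counts, it was −1.60. These counts correspond to 0.690, 0.266 and 0.0637 CPM in AB and 0.695, 0.439 and 0.331 CPM in SAM, with a large counting error.

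Through the stages, the BBM-described gene had its highest level in the apex at stage 2, and in the bud both stages of growth were above both stages of cold. In SAM it averaged 26.03 ± 3.28, 51.02 ± 7.56, 14.2 ± 5.75 and 0.488 ± 0.187 CPM at stages 1 to 4 (SD, n = 3 each). The change was 0.97 ± 0.27 for stage 2 against stage 1, −1.84 ± 0.29 for stage 3 against stage 2 and −4.79 ± 0.41 for stage 4 against stage 3, on the log2 scale, with no overlap in any step. SAM libraries of these steps did not overlap for 27.7%, 37.8% and 30.0% of all genes tested. SAM stage 4 was 98.7-fold below SAM stage 2.

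In AB the BBM-described gene averaged 4.69 ± 0.438, 4.48 ± 0.935, 0.765 ± 0.530 and 0.340 ± 0.320 CPM at stages 1 to 4 (SD, n = 2 and then 3). The change was −0.06 ± 0.39, −2.54 ± 0.45 and −1.15 ± 0.70 for the successive steps. AB libraries of stages 1 and 2 overlapped, as did those of stages 3 and 4, while those of stages 2 and 3 did not. Stage 4 was 12.8-fold below stage 2 with no overlap. AB libraries did not overlap for 35.6% of all genes tested in stage 3 against 2, and for 59.8% in stage 4 against 2. Without AB stage 3 replicate 1 the step into cold was −3.19 and the last step −0.49. Without AB stage 4 replicate 1 the last step was −2.19 and the change from stage 2 to stage 4 was −4.72.

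In the order of means of the BBM-described gene, SAM stages 2, 1 and 3 came first, then AB stages 1, 2 and 3, then SAM stage 4 and AB stage 4. Of the 7 pairs of neighbours 3 overlapped, and these were AB stages 1 and 2, AB stage 3 with SAM stage 4, and the stage 4 groups with each other. In the authors' deposited table, the log2 fold changes of the BBM-described gene were −0.07 and −1.14 in AB and 0.97 and −4.78 in SAM, for stage 2 against 1 and stage 4 against 3. For the RAP2-7-described gene the authors' deposited table gives 0.17 and −1.06 in AB, and −0.08 and −0.83 in SAM.

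**Figure D3:**
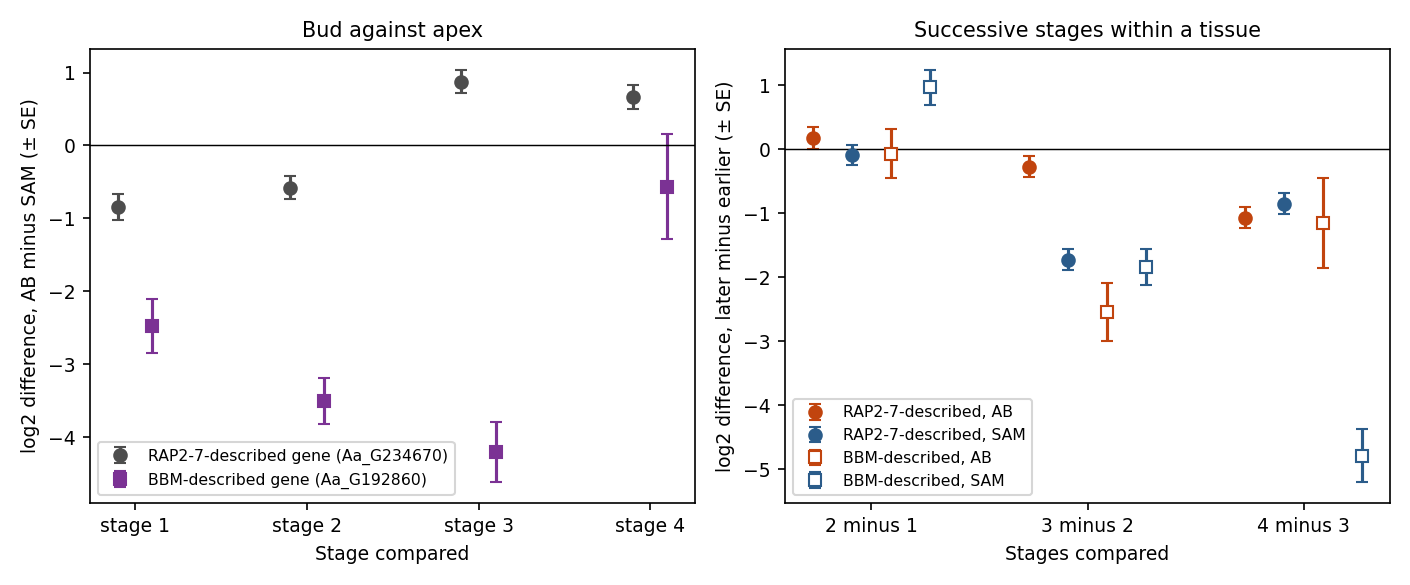
Differences of the 2 genes on the log2 scale with the SE of the fit, for AB minus SAM at each stage (left) and for a later minus an earlier stage in each tissue (right). The RAP2-7-described gene crosses 0 between stages 2 and 3 on the left, and the BBM-described gene reaches −4.20 at stage 3, while on the right its largest change is −4.79, in SAM from stage 3 to stage 4.

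Per coding length, in transcripts per 1000000 (TPM), the RAP2-7-described gene was the more abundant of the 2 in all 8 groups. Its mean TPM was 27.01, 31.9, 154 and 168 times that of the BBM-described gene in AB at stages 1 to 4. In SAM the ratio was 8.72, 4.22, 4.57 and 73.9. The 2 genes came closest in the apex of stage 2, with 128 ± 21.8 TPM for the RAP2-7-described gene and 30.4 ± 3.73 TPM for the BBM-described gene (SD, n = 3). The AB ratios at stages 3 and 4 rest on few counts of the BBM-described gene and ran from 86.4 to 432 and from 106 to 764 over single libraries.

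At SAM stage 3 the libraries differed for both genes. Replicate 3 was the lowest of its group for both, at 46.2 CPM for the RAP2-7-described gene and 7.94 CPM for the BBM-described gene. The same library was the highest of the 3 for the AGL8-described gene (Aa_G862480, FUL), a promoter of flowering in Arabidopsis, with 25.9 CPM beside 9.51 and 7.58 CPM in replicates 1 and 2, and for an SPL4-described gene (Aa_G381970), with 51.1 CPM beside 17.3 and 8.65 CPM. It was also the shallowest, with 12247645 counts, and its level of LFY (Aa_G61540), a floral meristem identity gene, lay between the other two. The part of these differences in the results was not tested, and without this library the stage 3 difference of AB minus SAM was 0.73 for the RAP2-7-described gene and −4.44 for the BBM-described gene, and the change of SAM stage 3 against stage 2 was −1.55 and −1.57. At AB stage 4, replicate 1 was the highest of its group for both genes. It was the lowest for FUL (25.4 CPM beside 38.6 and 42.9 CPM) and the SPL4-described gene (26.03 CPM beside 40.6 and 51.98 CPM). LFY was lowest in this library too. The floral marker AP1 (Aa_G283230) went the other way and was highest in it, at 2.195 CPM beside 1.063 and 1.975 CPM. These AP1 levels rest on only 35, 16 and 31 counts. The flowering repressor FLC (Aa_G579940) was highest in AB stage 4 replicate 1, at 3.95 CPM beside 3.72 and 3.25 CPM. In SAM stage 3 replicate 3 it was the lowest of its group, at 1.41 CPM beside 3.34 and 2.79 CPM. The part of the differences between AB stage 4 libraries was not tested.

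The other genes described as RAP2-7 were followed to see whether the change of side was shared. They were added on their description after the files were opened, and were tested with edgeR's quasi-likelihood test, adjusted over all genes tested. Aa_G158280 (chromosome 4, 26249604 to 26251566), with the TOE1 locus as its alias, changed side in the same way. It averaged 78.4 ± 8.78 CPM in AB and 109.9 ± 9.11 CPM in SAM at stage 2, a log2 difference of −0.49 ± 0.12 (edgeR adjusted p = 0.00339), and 84.3 ± 8.58 CPM in AB and 54.5 ± 7.07 CPM in SAM at stage 3, a difference of 0.63 ± 0.12 (edgeR adjusted p = 0.000407). At stage 1 (−0.29 ± 0.14, edgeR adjusted p = 0.113) and stage 4 (0.34 ± 0.13, edgeR adjusted p = 0.164) it did not pass the threshold of 0.05.

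Aa_G207710 (chromosome 5, 7110218 to 7112514), which shares the alias At5g60120 with the RAP2-7-described gene, passed the test at both cold stages. It averaged 23.4 ± 0.194 CPM in AB and 24.0 ± 2.19 CPM in SAM at stage 1 (SD, n = 2 and 3), and 24.8 ± 0.408 CPM in AB and 13.1 ± 0.785 CPM in SAM at stage 3. It was higher in AB by 0.91 ± 0.13 at stage 3 (edgeR adjusted p = 9.58e-06) and by 0.82 ± 0.14 at stage 4 (edgeR adjusted p = 0.00117). Its differences of −0.03 ± 0.14 at stage 1 and 0.18 ± 0.12 at stage 2 did not pass.

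Both relatives fell between stages 3 and 4 in the bud and at both cold steps in the apex. The log2 change in AB stage 4 against stage 3 was −1.25 ± 0.13 for Aa_G158280 (edgeR adjusted p = 2.21e-07) and −1.18 ± 0.13 for Aa_G207710 (edgeR adjusted p = 4.03e-07). From stage 2 to stage 3 neither passed in AB, at 0.11 ± 0.12 and −0.05 ± 0.12. In SAM the changes for stage 3 against 2 and stage 4 against 3 were −1.01 ± 0.12 and −0.97 ± 0.13 for Aa_G158280, and −0.78 ± 0.13 and −1.09 ± 0.13 for Aa_G207710 (edgeR adjusted p at most 0.000157). The difference between tissues in these changes was not tested.

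Summed over the 3 RAP2-7-described genes, the level was 171 ± 5.80, 172 ± 4.0, 159.5 ± 7.19 and 69.7 ± 13.6 TPM in AB at stages 1 to 4 (SD, n = 2 and then 3), and 239 ± 23.3, 236 ± 30.7, 88.8 ± 14.1 and 47.7 ± 4.82 TPM in SAM (SD, n = 3 each). Aa_G234670 alone made up 44.8% ± 0.638, 50.6% ± 3.12, 44.7% ± 3.38 and 47.3% ± 2.60 of this sum in AB. In SAM it made up 55.1% ± 0.592 and 54.2% ± 3.22 at stages 1 and 2, and 41.0% ± 3.88 and 43.9% ± 2.97 at stages 3 and 4. Its share in SAM was thus lower in every cold library than in any library of growing plants, with libraries at 50.5% to 56.4% before cold and 37.1% to 46.7% in cold. In AB the libraries before cold, at 44.4% to 52.7%, overlapped those in cold, at 41.7% to 50.3%.

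**Figure D4:**
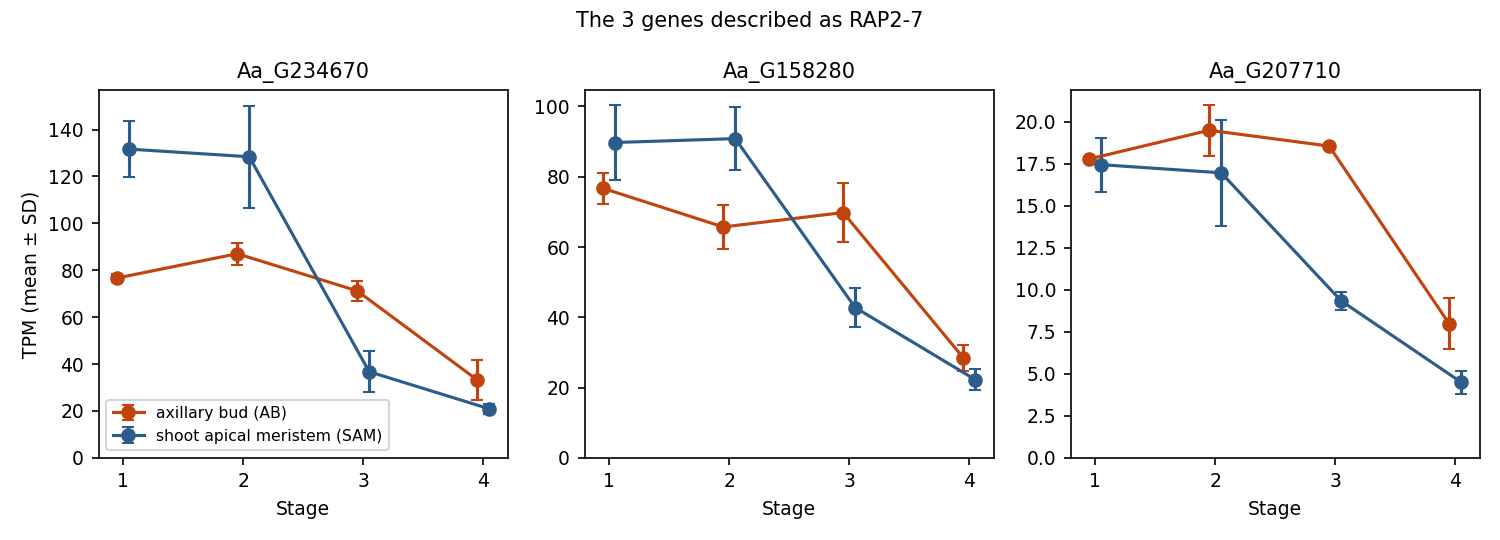
TPM (mean ± SD, n = 3, and n = 2 for AB stage 1) of the 3 RAP2-7-described genes at the 4 stages, with AB in red and SAM in blue. In each panel AB lies above SAM at stages 3 and 4, and for Aa_G234670 and Aa_G158280 it lies below SAM at stages 1 and 2. The panels have their own axes, and Aa_G207710 is the least abundant.

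Of the wider AP2-like family, 9 further genes were found by their descriptions and 8 were tested. Aa_G532950, a further BBM-described gene, had 1 count in all libraries and was not tested. In AB against SAM, 2 of the 8 were higher and 1 lower at stage 1, 2 higher and 3 lower at stage 2, and 4 higher and 0 lower at stage 3. Of all genes tested, 32.8%, 37.4% and 44.2% were called at these stages. Without AB stage 1 replicate 2 the stage 1 count was 1 rather than 3, and leaving out any AB library or SAM replicate 1 brought the stage 2 count to 3 rather than 5. The median differences of the 8 were −0.03, 0.05 and 0.19, beside −0.02, −0.00 and −0.01 over all genes. At stage 4, 0 of 8 were called by edgeR, with 1 at an unadjusted p under 0.05, 0 by DESeq2 and 1 in a fit to these 6 libraries alone, where 3.47% of all genes were called by edgeR.

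Another BBM-described gene, Aa_G221680 (chromosome 3, 23854809 to 23857174), had few counts and was lower in AB at stages 1 and 2. It had 0 counts in the 2 AB libraries of stage 1 and 27 counts over the 3 SAM libraries, at least 4.68-fold lower in AB when its level is set to 3 counts over the group, the floor that a count of 0 allows, with an edgeR adjusted p = 0.00615. Without AB stage 1 replicate 2 the call ended (adjusted p = 0.0563, edgeR). At stage 2 it had 1 count over the 3 AB libraries and 42 over the 3 SAM libraries (edgeR adjusted p = 0.000862). At stages 3 and 4 it had 2 and 1 counts in AB and 8 and 2 in SAM, and neither stage was called.

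Within the APETALA2 branch, the gene described as APETALA 2 itself (Aa_G575880) was called in AB against SAM at stage 2 alone. It averaged 119 ± 5.35 CPM in AB and 141 ± 3.80 CPM in SAM at stage 1, and 92.5 ± 19.3 CPM in AB and 79.1 ± 8.50 CPM in SAM at stage 4. Its lower level in AB at stage 2 (−0.30 ± 0.11, edgeR adjusted p = 0.0393) was lost under 8 of 13 alternatives, where adjusted p reached 0.170, and leaving out any AB library (adjusted p 0.0630 to 0.131) or SAM replicate 1 (0.0820) or 2 (0.170) ended it. Its log2 change at stage 4 against stage 3 was −0.49 ± 0.11 in AB (edgeR adjusted p = 0.00107) and −0.57 ± 0.11 in SAM (edgeR adjusted p = 0.00233). Aa_G287630, with the SMZ locus At3g54990 as its alias, was higher in AB at stage 1 by 3.37 ± 0.65 (2.54 ± 0.493 CPM in AB and 0.238 ± 0.0803 CPM in SAM, edgeR adjusted p = 0.000395). The RAP2-7-described gene was lower in AB there. At stage 2 Aa_G287630 was again higher in AB, by 2.21 ± 0.58 (edgeR adjusted p = 0.00468). The short model described as TOE2 (Aa_G580860, coding length 270 bp) stayed between 1.32 and 1.89 CPM in all group means and was called in none of the 12 comparisons by edgeR.

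The AINTEGUMENTA branch held genes on either side. An AIL6-described gene (Aa_G98260) was higher in AB at stages 1 to 3, by 0.34 ± 0.08, 0.52 ± 0.07 and 0.24 ± 0.07 (edgeR adjusted p = 0.00189, 7.31e-06 and 0.0106). The other AIL6-described gene (Aa_G81500) stood at 22.5 ± 2.58 CPM in AB stage 3, against 31.4 ± 1.74 CPM in AB stage 2, a log2 change of −0.48 ± 0.13 (edgeR adjusted p = 0.0101) that was not called without AB stage 3 replicate 3 (adjusted p = 0.0531, edgeR). It rose to 47.5 ± 2.56 CPM in AB stage 4 (1.08 ± 0.13 against stage 3, edgeR adjusted p = 1.07e-06), where the BBM-described gene was at its lowest. Aa_G690180, with the AIL5 locus At5g57390 as its alias, was higher in AB by 1.08 ± 0.11 at stage 2 (102 ± 6.85 CPM in AB and 48.2 ± 8.77 CPM in SAM, edgeR adjusted p = 1.58e-07) and by 0.69 ± 0.11 at stage 3 (edgeR adjusted p = 3.77e-05). In SAM stage 2 against stage 1 it fell, with a change of −0.88 ± 0.11 (edgeR adjusted p = 6.94e-05), in the step where the BBM-described gene was higher by 0.97.

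Other genes are described only as AP2-like. Aa_G293670 (chromosome 7, 29452939 to 29455970) stood at 2.71 ± 0.697 CPM in AB stage 4, against 14.1 ± 5.39 CPM in AB stage 3, a log2 change of −2.38 ± 0.38 (edgeR adjusted p = 5.99e-05), and at stage 3 it was higher in AB than in SAM by 1.67 ± 0.36 (edgeR adjusted p = 0.00106). Aa_G179820 was higher in AB by 1.37 ± 0.33, 1.29 ± 0.30 and 1.06 ± 0.31 at stages 1 to 3 (edgeR adjusted p = 0.00314, 0.00202 and 0.00811), the first of which was lost without AB stage 1 replicate 2 (adjusted p = 0.0958, edgeR). Aa_G145830 was higher in AB at stage 3 by 0.32 ± 0.10 (edgeR adjusted p = 0.00963), with adjusted p of 0.0604 and 0.0608 without AB or SAM stage 3 replicate 1.

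By step, 0 of the 8 family genes were called in AB stage 2 against stage 1 (1 at an unadjusted p under 0.05, edgeR), where 1.16% of all genes were called. In AB stage 3 against stage 2, 0 were higher and 2 lower, with 22.2% of all genes called, and 1 was called without AB stage 3 replicate 3. In AB stage 4 against stage 3, 2 were higher and 4 lower, with 47.3% of all genes called, and in AB stage 4 against stage 2, 1 was higher and 3 lower, with 51.1%. In SAM stage 2 against stage 1, 0 were called (2 at an unadjusted p under 0.05, edgeR), with 7.58% of all genes called. The other SAM comparisons had 0 higher and 2 lower for stage 3 against 2, 2 higher and 1 lower for stage 4 against 3, and 1 higher and 3 lower for stage 4 against 2, with 24.3%, 9.18% and 33.7% of all genes called. For stage 3 against 2 in SAM, 1 rather than 2 was called without stage 2 replicate 2 or 3 or stage 3 replicate 3. The family median was −0.47 in AB stage 4 against stage 3 and −0.35 in SAM stage 4 against stage 2, beside −0.02 and −0.01 over all genes.

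SPL genes, some of whose products switch on miR172 in Arabidopsis, were counted beside the RAP2-7-described gene. The list was drawn by description and was not limited to those. All 13 genes found by description were tested. In AB against SAM, 2 were higher and 4 lower at stage 1, 2 higher and 5 lower at stage 2, 3 higher and 8 lower at stage 3, and 0 higher and 2 lower at stage 4, where 32.8%, 37.4%, 44.2% and 3.47% of all genes were called. At every stage more SPL genes were lower than higher in AB. Their part in the level of the RAP2-7-described gene was not tested. In AB, 2 rose and 0 fell at stage 2 against 1, 1 rose and 4 fell at stage 3 against 2, and 8 rose and 4 fell at stage 4 against 3, with 1.16%, 22.2% and 47.3% of all genes called. In SAM, 2 rose and 1 fell, 5 rose and 2 fell, and 5 rose and 3 fell in the same steps, with 7.58%, 24.3% and 9.18% of all genes called. The gene described as SPL8 (Aa_G106150) stood at 4.75 ± 0.953 CPM in AB and 34.7 ± 7.504 CPM in SAM at stage 3 (edgeR adjusted p = 2.87e-05), and an undesignated one (Aa_G230760) at 15.7 ± 1.20 CPM in AB and 159 ± 50.1 CPM in SAM (edgeR adjusted p = 9.22e-09). The SPL1-described genes Aa_G593410 and Aa_G349460 were higher in AB at stage 3 by 0.30 ± 0.08 and 0.77 ± 0.10 (edgeR adjusted p = 0.00337 and 4.09e-06).

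Of 7 genes described as TOPLESS or TOPLESS-related, co-repressors that APETALA2-branch factors recruit in Arabidopsis, 2 were higher in AB at stage 1, 1 at stage 2, and 0 were called at stages 3 and 4 by edgeR (2 and 0 at an unadjusted p under 0.05), beside 32.8%, 37.4%, 44.2% and 3.47% of all genes. Within tissues, 4 were lower in AB stage 4 than in AB stage 2 and 3 in SAM, where 51.1% and 33.7% of all genes were called, so these counts lie near the background. Of 18 flowering genes, 13 were tested. In AB against SAM, 1 was higher and 3 lower at stage 1, 1 higher and 4 lower at stage 2, 3 higher and 2 lower at stage 3, and 2 higher and 3 lower at stage 4, beside the same shares of all genes. FLC (Aa_G579940), the vernalization-sensitive repressor of flowering, stood at 3.10 ± 1.06 CPM in AB and 2.51 ± 0.995 CPM in SAM at stage 3 (edgeR adjusted p = 0.402). At stage 4 it stood at 3.95, 3.72 and 3.25 CPM in AB libraries and 1.27, 1.10 and 0.827 CPM in SAM libraries. The tissues thus did not overlap there, as for 26.8% of all genes tested. FLC was lower at stage 3 than at stage 2 by a log2 change of −2.17 ± 0.22 in AB and −2.67 ± 0.23 in SAM (edgeR adjusted p = 3.56e-06 and 1.34e-07). The floral markers AP1 (Aa_G283230) and SEP4 (Aa_G675730) had 0 counts in both tissues at stages 1 and 2 and in AB at stage 3, and were detected in both tissues at stage 4, where the BBM-described gene was near the detection limit. The sum of LFY, AP1 and SEP4 was 35.4 to 47.0 CPM in AB and 144 to 244 CPM in SAM at stage 4. The part of these markers in the levels of the 2 genes was not tested.

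BBM acts with embryo regulators in Arabidopsis, and few counts of the LEC genes were found here. LEC2 (Aa_G329880), a master regulator of embryo development, had 0 counts in all libraries. LEC1 (Aa_G272230), another such regulator, had its highest sum at SAM stage 2, with 21 counts over 3 libraries, and 1 to 5 counts in the other groups. The 4 genes of the list that were tested are described as SERK, somatic embryogenesis receptor kinases. At stage 1, 1 of them was lower in AB, at stage 3, 2 were higher, and at stages 2 and 4, 0 were called by edgeR (1 and 3 at an unadjusted p under 0.05). With 32.8%, 37.4%, 44.2% and 3.47% of all genes called at stages 1 to 4, these counts between tissues show nothing beyond the background. Within AB, edgeR called 0 of the 4 in stage 2 against 1 and 1 in stage 3 against 2. All 4 were called in stage 4 against 3 (1 higher, 3 lower) and stage 4 against 2 (2 higher, 2 lower). The shares of all genes called were 1.16%, 22.2%, 47.3% and 51.1%. In SAM the same steps had 2, 3, 0 and 2 called, beside 7.58%, 24.3%, 9.18% and 33.7% of all genes. Each step with 0 called had 1 at an unadjusted p under 0.05 by edgeR.

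Markers of other tissues that a dissected piece can hold moved with the comparisons. The phloem gene SUC2 stood at 3.31 to 13.8 CPM in AB libraries of stages 1 to 3, at 0.0642 to 0.319 CPM in AB stage 4, and at up to 1.34 CPM in SAM. The 53 photosynthesis genes that mark leaf mesophyll summed to 7768 to 9369 CPM in AB and 11932 to 14349 in SAM at stage 1. At stage 2 the sums were 7278 to 8870 and 9077 to 12042 CPM. At stage 3 they overlapped, at 8212 to 10175 and 8541 to 11830 CPM. At stage 4 they were apart again, at 7363 to 7865 and 8343 to 10519 CPM. The 5 boundary genes summed to 61.9 to 174 CPM in AB and 46.7 to 93.6 CPM in SAM over all stages. Single boundary genes went either way. At stage 1, LOB had 478 to 664 counts in AB libraries and 23 to 45 in SAM libraries. CUC2 had 148 to 168 in AB and 297 to 304 in SAM. The part of all these tissue markers in the levels of the 2 genes was not tested.

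The genes most like each of the 2 were ranked by Pearson's correlation of log2 CPM group means over the 8 groups, which share libraries and stages. For the RAP2-7-described gene these were Aa_G42440 (an uncharacterized protein, r = 0.991), Aa_G18630 (a glycosyl hydrolase of family 35, 0.985), Aa_G275720 (described as a receptor-like protein, 0.981), Aa_G287660 (an aminotransferase-like protein, 0.980) and Aa_G251370 (a nucleotidyl transferase, 0.979). Aa_G158280 came 11th, with r = 0.968, and Aa_G207710 184th, with 0.913. For the BBM-described gene they were Aa_G116840 (uncharacterized, 0.988), Aa_G22640 (an endonuclease or glycosyl hydrolase, 0.986), Aa_G396650 (a chromosome condensation regulator repeat protein, 0.984), Aa_G92770 (translation initiation factor 3 subunit a, 0.978) and Aa_G219260 (named only as a protein, 0.978). Its namesake Aa_G221680 came 595th, with 0.797, and the 2 genes correlated with each other at 0.715. Aa_G92770 averaged 1.09, 0.695, 0.0456 and 0.0630 CPM in AB and 3.46, 4.83, 1.10 and 0.0624 CPM in SAM at stages 1 to 4. The correlation compares the shape over the groups and not the size of the change. Aa_G116840, the first by rank, changed far less. It averaged 168, 170, 132 and 129 CPM in AB and 203, 202, 184 and 136 CPM in SAM.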

How the data were processed

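Gene counts were taken from 23 RNA-seq libraries of Arabis alpina AB and SAM (single-end reads of 150 bp, per the labels). The deposited table holds counts of mapped reads per gene, per the file headers, and TPM computed by the authors. The authors' deposited log2 fold changes were copied for the 2 genes only. The submitters' processing notes name FastQC. For the aligner, the counter and strandedness, the sources used here give nothing. Another 46 columns of per-library values were not used. Gene models of assembly version 5 came from the deposited annotation, which gives an Arabidopsis alias for 475 of 34220 genes.

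Tests on the counts used edgeR 4.0.16 (R 4.3.3) with filterByExpr by group (minimum count 10, total 15), which kept 21414 genes, TMM scaling, 1 coefficient per group over all libraries, robust quasi-likelihood F tests and Benjamini-Hochberg adjustment over all genes tested (threshold 0.05). CPM computed here are per 1000000 counts of the scaled library size. SE came from the change and the F statistic. The fit was tested on simulated data. Alternatives were DESeq2 1.42.0, its size factors, no filter, limma 3.58.1 on log2(TPM + 1) and log2(TPM + 0.1), only the libraries compared, a replicate block and leaving out each library. Per the labels replicates are biological. Replicate pairs differed by more than sampling noise (lowest chi-square per degree of freedom 4.01 over 22 pairs). The labels do not say what a replicate number marks. Deviations of same-numbered libraries correlated above 0.1 in every pair in 2 of 12 comparisons, AB against SAM at stage 2 (0.155 to 0.254) and stage 3 (0.134 to 0.190). The reported differences, SE and p-values come from the fit without a block in these comparisons too. As an alternative, the block changed no call of the AP2-like relatives in these 2 comparisons.

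The 2 genes and the lists were chosen with earlier results of these data known. Relatives were named by a rule on descriptions (up to 4 called genes a comparison with the largest change), with 4 added by description or alias after the files were opened. SPL, SPL4, FUL, LFY, LEC and other single genes outside that rule were named after their values were seen. Likeness took the 5 genes with the highest correlation. No gene matched TEMPRANILLO. Floors of 3 counts cover counting error only. One gene of the embryo list is not reported here.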

Additional observations from a re-analysis of the deposited data

Results flagged for a closer look

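The 2 genes, the 8 tested genes of the wider family and the 4 added relatives were searched for a change of side. For 3 of them the libraries of AB and SAM were apart in opposite directions at a stage of growth and at a stage of cold. Over all genes tested, the tissues did not overlap for 56.8%, 46.0%, 50.9% and 26.8% at stages 1 to 4. The share of all genes apart in opposite directions was not computed. For the RAP2-7-described gene (Aa_G234670) the difference at stage 3 exceeded that at stage 1 by 1.72 and that at stage 2 by 1.45 on the log2 scale, and at stage 4 it exceeded them by 1.503 and 1.24. For Aa_G158280, described as RAP2-7 too, the same 4 values were 0.92 and 1.11 at stage 3, and 0.63 and 0.83 at stage 4. For Aa_G81500, described as AIL6, this held for stages 2 and 4 alone, between which the difference was 0.67. Its AB minus SAM was −0.06 and −0.26 at stages 1 and 3, where the tissues overlapped, −0.33 at stage 2, a call lost under 9 of 13 alternatives, and 0.35 at stage 4, which was not called (edgeR adjusted p = 0.0425 and 0.134). These differences between stages were not tested, and the first gene was chosen with its levels known.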

How the results depend on the processing

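Of 307 differences of the 2 genes under the alternatives, 304 kept the sign of the reported value and 295 moved by less than 1 SD between replicates. The sign changed for BBM-described AB stage 2 against stage 1 (0.04 without AB stage 1 replicate 1 and 0.09 without AB stage 2 replicate 3) and for RAP2-7-described SAM stage 2 against stage 1 (0.01 without SAM stage 2 replicate 3), where the groups overlap. On log2(TPM + 1), which understates changes of low genes, the BBM-described gene differed between AB and SAM by −2.06, −3.08 and −2.58 at stages 1 to 3, in AB by −1.36 (stage 3 against 2) and −1.64 (4 against 2) and in SAM by −2.75 (4 against 3) and −4.61 (4 against 2).

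With the replicate block the RAP2-7-described gene differed by 0.25 in AB stage 2 against stage 1, Aa_G158280 passed in AB against SAM at stage 1 (edgeR adjusted p = 0.0242), and 4 family genes were called there beside 3 without it. Among the AP2-like relatives, the block also gave Aa_G575880 calls in AB against SAM at stage 1 and in AB stage 4 against stage 2, and changed no other call. Same-numbered libraries correlated at −0.368 to 0.26 over all 12 comparisons. With single libraries left out, the BBM-described gene ranged from −1.60 to −0.075 in AB against SAM at stage 4, from −2.19 to −0.49 and from −4.72 to −3.20 in AB stage 4 against stages 3 and 2, and from −7.01 to −6.43 in SAM stage 4 against stage 2. The outer value came without AB stage 4 replicate 1, or SAM stage 4 replicate 1 in the last.

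Family calls stayed within 1.5 times the reported count in 138 of 154 cases. In AB against SAM at stage 2, 3 were called with DESeq2 size factors and on either TPM scale, and 3 to 4 with single libraries left out (5 reported), at stage 1, 1 to 3, and at stage 4, 1 in a fit to the libraries compared. In AB stage 3 against 2 that fit called 1, with 1 to 2 when single libraries were left out, and SAM stage 3 against 2 had 1 with no filter or DESeq2 and 1 to 2. Causes were not tested. Low counts limit the BBM-described gene at stage 4.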
